A study of Homo sapiens with 40 samples.

Results

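The clustered protocadherins are 53 protein-coding genes on chromosome 5 (5q31), of the 60651 genes in the count tables. They were taken by symbol: every PCDHA, PCDHB or PCDHG gene with an isoform name, and no pseudogene (PCDHA14 was left out as one). In GENCODE v29 on GRCh38 the alpha cluster holds 15 genes between positions 140786136 and 141012347, the beta cluster 16 between 141051135 and 141249365, and the gamma cluster 22 between 141330571 and 141512981, all on the plus strand. All 53 were listed in the counts of undifferentiated cells and 45 in the tables of differentiated cells, where PCDHA1, PCDHA5, PCDHB7, PCDHGA1, PCDHGA5, PCDHGA6, PCDHGA7 and PCDHGA12 were not listed. The H9 table listed 52, without PCDHA1.

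Clustered protocadherins are cadherin-family adhesion proteins of the cell surface. They bind the same isoform on a neighbouring cell, and each neuron expresses its own mixture of them, which gives it an identity used in dendrite self-avoidance and in wiring. Most isoforms have a promoter and first exon of their own, and promoter choice is known to involve CTCF, cohesin and DNA methylation. The C-type members (PCDHAC1, PCDHAC2, PCDHGC3, PCDHGC4 and PCDHGC5) lie last in their clusters and are less tied to that stochastic choice. Alpha and gamma isoforms end in constant exons common to their cluster, while beta isoforms are single-exon genes. Of a gene's exon bases, 21.3 to 56.6% in the alpha cluster and 27.6 to 64.4% in the gamma cluster were also exon of another gene, against 0 to 9.4% in the beta cluster. Reads from those shared exons cannot be assigned to 1 isoform, and how the authors' counting split them is not given in the sources used here.

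The study asked how UTX (KDM6A), a histone H3 lysine 27 demethylase encoded on the X chromosome, and its Y-encoded relative UTY overlap in human embryonic stem (ES) cells. RNA-seq of polyadenylated RNA was made in 40 libraries, 2 in each of 20 groups, from the established ES cell lines SEES3 and H9. Whether the 2 libraries of a group came from separate cultures is not stated, so p-values measure only the spread between these libraries. Undifferentiated SEES3 cells were wild type (WT), UTX knockout (UTXKO), double knockout of both genes (DKO), UTY knockout (UTYKO) and a separate control for the last (UTYKO_ctrl). SEES3 cells in an endoderm, mesoderm or ectoderm set (Endo, Meso, Ecto) were WT, UTX knockout (XKO), UTY knockout (YKO) and double knockout (DKO), with no treatment or time given. Undifferentiated H9 cells were WT and UTX knockout in sets 3 and 4. The labels give neither the altered part of a targeted gene nor the clone behind a group, nor which wild-type stock the differentiated cells came from.

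The 10 undifferentiated libraries held 5781357 to 14973722 counts, so 1 count was worth 0.0668 to 0.173 CPM (counts scaled to the library total). The differentiated and H9 tables hold TPM (transcript levels scaled for gene length and library total), whose depth is unknown, and TPM levels were compared only within a table. Libraries of these tables are numbered by column, since the columns carry no number. KDM6A RNA was 85.8 to 98.2 CPM in WT, 88.2 to 106.0 in UTXKO and 78.2 to 82.3 in DKO, so its level does not check the knockout labels. All 6 pluripotency markers reached 1 CPM in every undifferentiated SEES3 library, all 6 endoderm markers reached 1 TPM in Endo WT and all 6 mesoderm markers did so in Meso WT. In Ecto WT, 5 of 6 neural progenitor markers did and HES5 was listed at 0. In all of these bulk libraries, fewer cells of a type and less RNA per cell cannot be told apart.

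The promoters show how alike the isoforms of 1 cluster are, and the windows that follow belong to members described in the results whose window holds the word of its cluster. RefSeq windows on GRCh38.p14, from 250 bases before to 50 bases after the start, were at hand for 47 of the 53 members. In each cluster the 9-base word most widely shared among its windows was found from these same windows, on both strands, so its share is a description. The alpha word GATGTCGCT stood in 9 of 13 alpha windows, the beta word GGTGGCGCT in 13 of 14 beta windows and the gamma word GCGCCGCTG in 10 of 20 gamma windows, each in 0 windows of the other clusters. Over all 35116 promoter windows those words stood in 0.105%, 0.501% and 1.28%. Each line gives a member and its plus strand on chromosome 5, 5′ to 3′, with the word of its cluster in capitals.
PCDHGB6 (chr5:141407921-141407959): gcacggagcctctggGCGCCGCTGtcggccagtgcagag
PCDHGA10 (chr5:141412928-141412966): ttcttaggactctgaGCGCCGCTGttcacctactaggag
PCDHGA11 (chr5:141420969-141421007): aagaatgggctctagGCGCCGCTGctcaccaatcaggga
PCDHGB5 (chr5:141397860-141397898): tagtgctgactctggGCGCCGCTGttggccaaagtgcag
PCDHB5 (chr5:141135175-141135205): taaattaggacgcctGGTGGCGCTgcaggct
PCDHB10 (chr5:141192295-141192333): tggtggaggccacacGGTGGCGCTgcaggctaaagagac
PCDHB14 (chr5:141223259-141223297): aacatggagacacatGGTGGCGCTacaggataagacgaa
PCDHA6 (chr5:140827893-140827931): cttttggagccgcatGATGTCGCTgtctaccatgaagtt
PCDHA2 (chr5:140794777-140794815): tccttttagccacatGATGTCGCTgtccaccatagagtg
Where it lay before the start, the word ended a median of 45 bases from it in the alpha cluster (35 to 78), 58.5 in the beta cluster (8 to 76) and 60 in the gamma cluster (36 to 91). All but that of PCDHB8 lay before the start. The windows of PCDHGB7, PCDHGC3, PCDHGC4, PCDHAC1 and PCDHAC2 lacked their cluster's word, which says only that these letters are not in the window. The 4 bases CGCT, common to all 3 words on one strand or the other, stood in 70.0% of all windows.

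Undifferentiated cells held RNA of all 3 clusters at low levels. In WT the summed level was 66.1 ± 4.51 CPM for alpha, 46.1 ± 2.21 for beta and 59.1 ± 4.91 for gamma (SD, n = 2). The gamma sum was 132.5 ± 6.73 CPM in DKO and between 54.2 and 69.9 CPM on average in UTXKO, UTYKO_ctrl and UTYKO, so both DKO libraries lay above all other undifferentiated libraries. For alpha the group means ran from 56.8 CPM in DKO to 66.1 in WT, and for beta from 38.2 in UTYKO to 62.1 in UTYKO_ctrl. Those sums add overlapping isoforms and carry no test.

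In the mesoderm set all 3 clusters had higher sums in DKO. Gamma RNA summed to 78.6 ± 3.34 TPM in Meso WT and 260.9 ± 1.85 in Meso DKO, beta RNA to 77.0 ± 4.97 and 170.9 ± 3.72, and alpha RNA to 13.5 ± 1.13 and 44.5 ± 9.85 (SD, n = 2). In all 3 clusters both Meso DKO libraries lay above both Meso WT libraries. The endoderm set had a gamma sum of 88.1 ± 7.35 TPM in WT and 129.0 ± 6.74 in DKO, and an alpha sum of 54.3 ± 6.18 and 39.5 ± 1.39. In the ectoderm set beta RNA was 209.6 ± 16.9 TPM in WT and 168.4 ± 17.4 in DKO, with both DKO libraries below both WT libraries. The gamma sums there, 146.9 ± 32.8 and 123.2 ± 0.401 TPM, differed by less than the spread between the WT libraries.

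**Figure D1:**
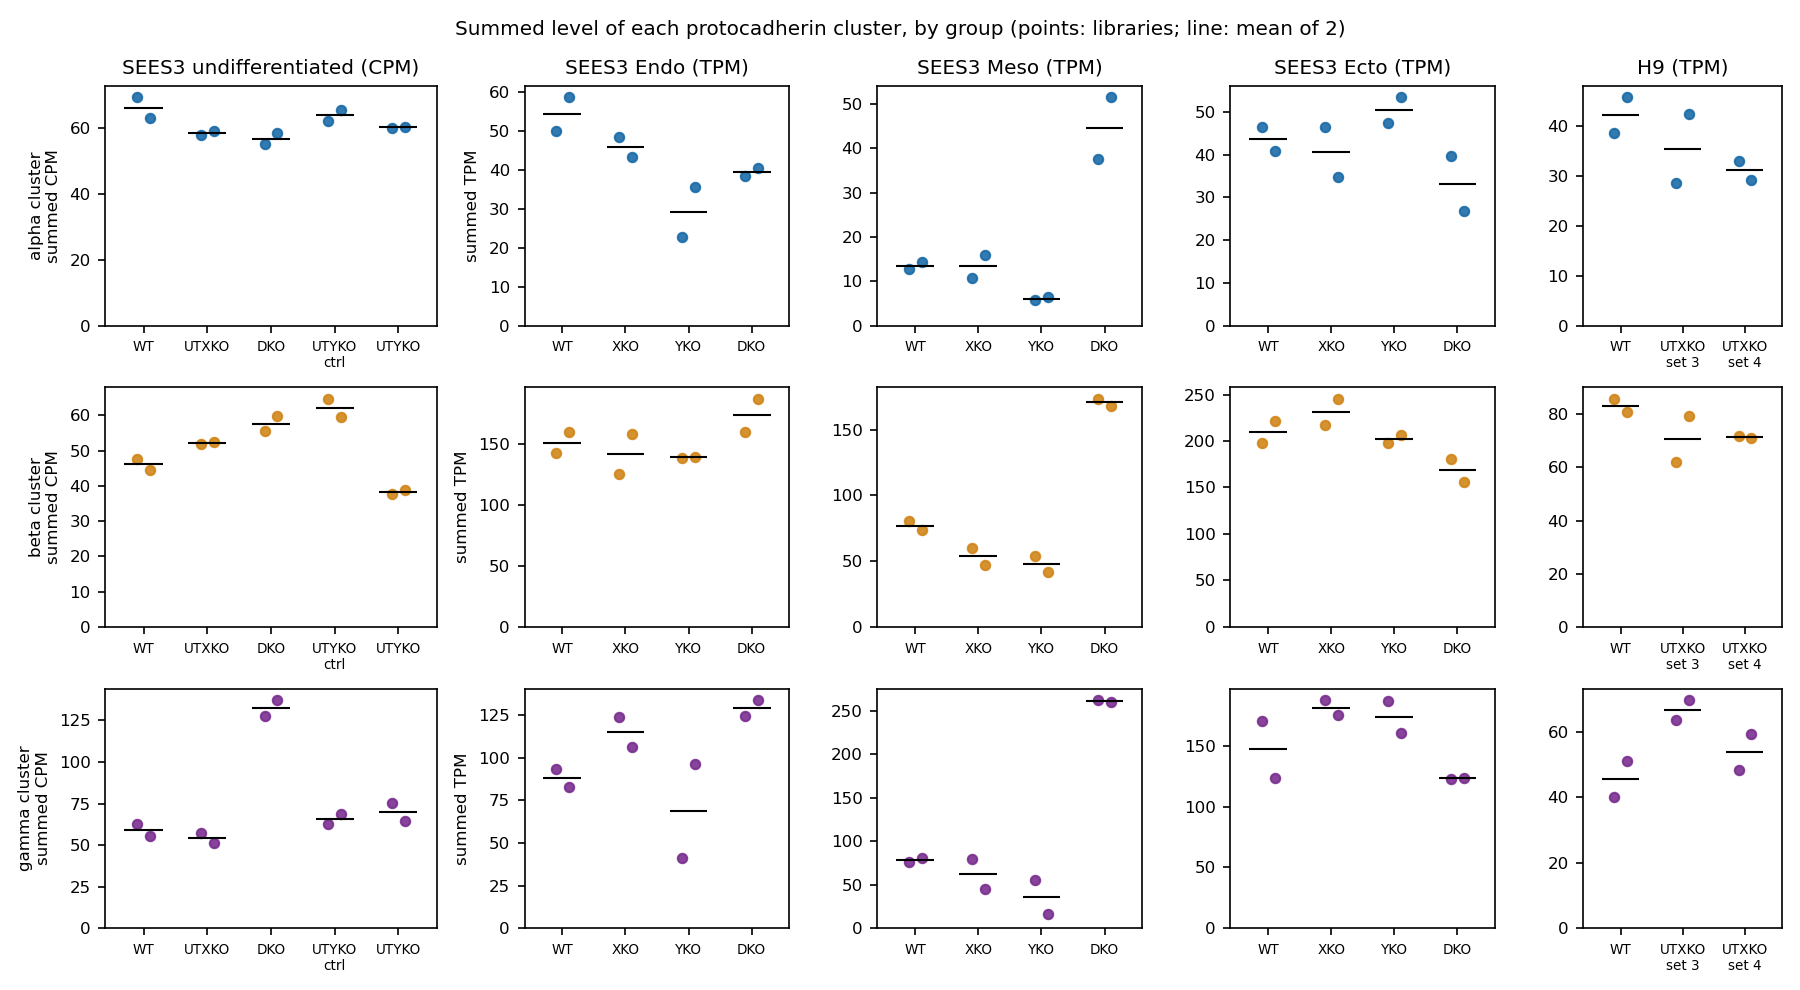
Summed level of the alpha, beta and gamma clusters (y axes, linear from 0) in each library, by group (x axes); undifferentiated SEES3 cells are in CPM, the other tables in TPM, with points for libraries and lines for the mean of 2. The gamma sum of the 2 undifferentiated DKO libraries stands above the other 8, and the Meso DKO libraries stand above Meso WT in every cluster.

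The 3 highest isoforms of a cluster held 39.1 to 73.2% of its summed level in the alpha cluster, 48.4 to 88.1% in the beta cluster and 42.3 to 92.9% in the gamma cluster, over all 40 libraries. In the TPM tables, where levels are scaled to gene length, PCDHB5 was the highest beta member in all 4 tables, with 48.0 to 102.2 TPM over the 8 Ecto libraries, 48.5 to 72.0 over Endo, 14.2 to 58.4 over Meso and 14.8 to 29.1 over the 6 H9 libraries. PCDHB15 came next in the 3 SEES3 tables (28.6 to 51.0 TPM in Ecto), and PCDHB16 in H9 (9.18 to 15.7 TPM). By the mean over all groups of a table the highest gamma members were PCDHGB6 in Endo and Ecto, PCDHGC4 in Meso and PCDHGB7 in H9, but in the WT libraries alone PCDHGB7 had the highest mean in all 3 SEES3 sets (20.9 TPM in Endo, 30.2 in Meso and 46.9 in Ecto). Among alpha isoforms, PCDHA12 had the highest mean over all groups in Endo (4.89 to 10.6 TPM) and Ecto (2.67 to 12.3), PCDHA4 in Meso (1.14 to 9.73) and PCDHA11 in H9 (8.0 to 17.0), while PCDHA10 had a higher mean than PCDHA12 in Endo WT and Ecto WT (10.3 against 8.35 and 7.33 against 5.08 TPM) and than PCDHA4 in Meso WT (3.27 against 2.48).

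**Figure D2:**
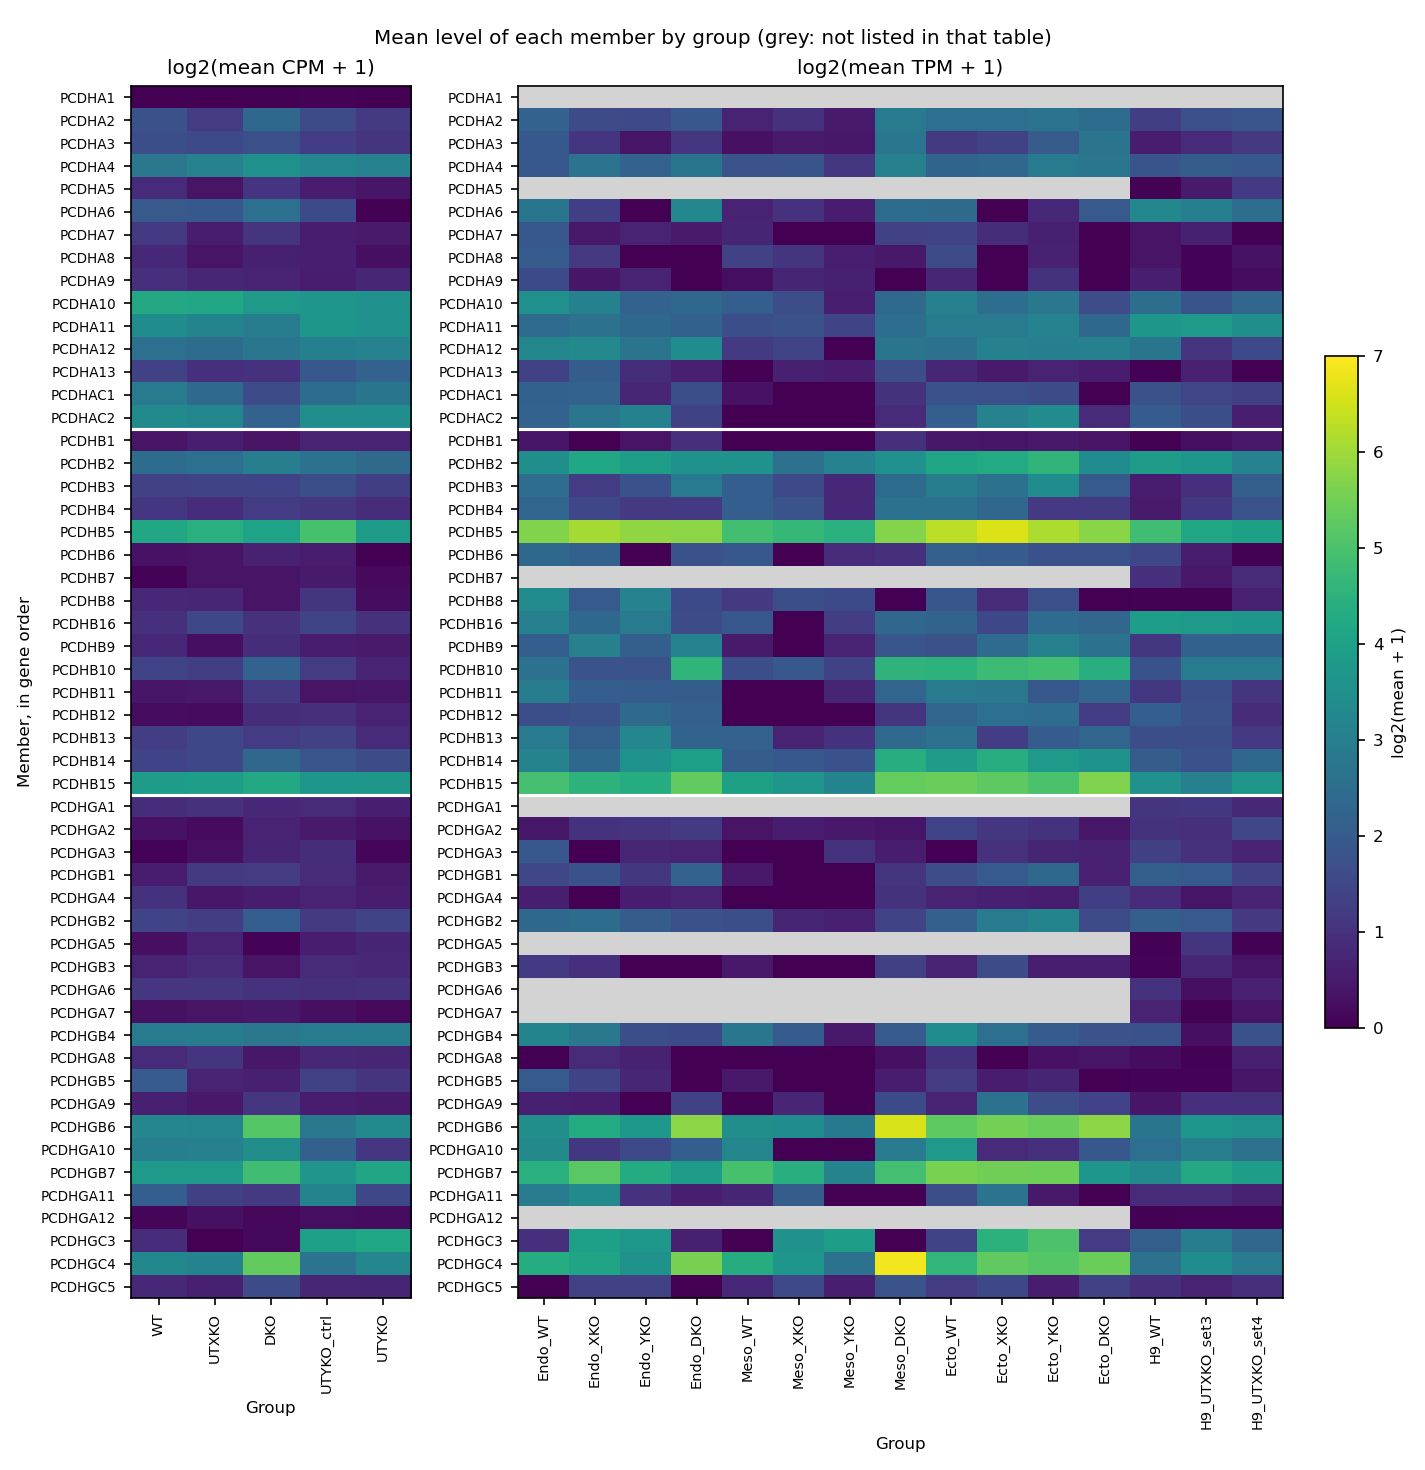
Mean level of all 53 members (y axis, in gene order, white lines between clusters) in each of the 20 groups (x axes), as log2(mean CPM + 1) for undifferentiated SEES3 cells and log2(mean TPM + 1) for the other tables; grey marks members that a table does not list. PCDHB5 and PCDHB15 are the brightest beta members in the SEES3 groups. PCDHGB6 and PCDHGC4 are bright in Meso DKO, and PCDHGC3 is bright in UTYKO_ctrl, UTYKO and the single knockouts of the differentiated sets.

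Loss of both UTX and UTY went with higher RNA of a few gamma isoforms and lower RNA of the alpha C-type isoforms in undifferentiated cells. PCDHGC4, a C-type gamma isoform, stood at 9.81 and 7.54 CPM in the WT libraries and at 38.9 and 39.6 in the DKO libraries. PCDHGB6, a variable gamma isoform, stood at 9.21 and 7.81 CPM in WT and at 32.5 and 37.3 in DKO. For both isoforms the DKO libraries lay far above every other undifferentiated library, UTXKO included (6.82 to 9.16 CPM). The log2 difference between DKO and WT was 2.16 ± 0.13 for PCDHGC4 (SE, 2 libraries against 2, edgeR quasi-likelihood test, adjusted p = 8.35e-12) and 2.00 ± 0.14 for PCDHGB6 (adjusted p = 5.61e-11). PCDHGB7, which lies between them in gene order, rose from 13.1 and 12.8 CPM in WT to 25.0 and 31.1 in DKO (log2 difference 1.06 ± 0.14, adjusted p = 1.15e-06 in edgeR). Of the gamma cluster's CPM, PCDHGC4 held 28.9 to 30.4% in DKO and 13.6 to 15.7% in WT, PCDHGB6 25.5 to 27.2% and 14.1 to 14.7%, and PCDHGB7 19.6 to 22.7% and 20.9 to 23.0%, so the share of PCDHGB7 overlapped between the groups.

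Other gamma isoforms fell. PCDHGB5 was at 2.82 and 3.22 CPM in WT and at 0.444 and 0.635 in DKO, a log2 difference of -2.54 ± 0.44 (edgeR, adjusted p = 6.02e-05). PCDHGA11 was at 3.42 and 3.03 CPM in WT and at 1.33 and 1.27 in DKO (-1.33 ± 0.35, edgeR adjusted p = 0.00375, and 0.133 with DESeq2). Neither pair of groups overlapped. PCDHGC5, the last gene of the cluster, was low in WT at 0.594 and 0.827 CPM and higher in DKO at 2.11 and 2.03 (1.42 ± 0.44, edgeR adjusted p = 0.0114). Without any 1 of the 4 libraries its adjusted p lay between 0.0555 and 0.0881. PCDHGC3 had 6 and 9 counts in the WT libraries and 1 in each DKO library, too few for the test, and its pooled level was 7.19 times higher in WT with a counting interval of 1.67 to 64.8 (95%).

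The alpha C-type isoforms fell together in DKO. PCDHAC1 was at 7.28 and 5.33 CPM in WT and at 2.00 and 2.03 in DKO, a log2 difference of -1.65 ± 0.29 (edgeR, adjusted p = 6.06e-05). PCDHAC2 was at 8.92 and 9.10 CPM in WT and at 3.89 and 3.30 in DKO (-1.37 ± 0.22, edgeR adjusted p = 2.53e-05). In both cases the DKO libraries were the lowest of the 10. Among the variable alpha isoforms, PCDHA4 rose from 6.09 and 5.70 CPM to 9.0 and 11.7 (0.76 ± 0.20, edgeR adjusted p = 0.00336), a call that ended without the second DKO library (adjusted p = 0.0613). PCDHA2 and PCDHA6 also rose, by 0.84 and 0.81 on the log2 scale, and PCDHA10 and PCDHA11 both fell by 0.52. The adjusted p of PCDHA6 was 0.509 without the second WT library and 0.0994 without the second DKO library, that of PCDHA2 was 0.396, 0.148 and 0.0536 without the second WT, first DKO and second DKO library, and that of PCDHA11 was 0.0999, 0.112 and 0.0721 without the same 3 (edgeR).

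In the beta cluster 4 isoforms rose and 0 fell at the threshold. PCDHB10 went from 1.63 and 1.65 CPM in WT to 4.11 and 3.05 in DKO (1.07 ± 0.34, edgeR adjusted p = 0.0120), and PCDHB14 from 1.04 and 2.30 to 4.55 and 3.43 (1.10 ± 0.35, adjusted p = 0.0128). PCDHB2 and PCDHB11 rose as well, the latter from 0.297 and 0.368 CPM to 1.33 and 1.27. The main beta isoforms did not pass: PCDHB5 was at 18.3 and 16.4 CPM in WT and 15.6 in both DKO libraries (edgeR, adjusted p = 0.258), and PCDHB15 at 13.4 and 13.3 against 15.8 and 19.6 (0.34 ± 0.15, adjusted p = 0.0557), with no overlap for either. The call of PCDHB10 ended without the second WT library (adjusted p = 0.0629) or the first DKO library (0.175), and that of PCDHB14 without the first WT library (0.107) or the first DKO library (0.125). PCDHB2 lost its call without the second WT (0.26) or second DKO library (0.343), and PCDHB11 without any 1 of the 4 libraries (0.0735 to 0.111).

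In all, 31 of the 53 members passed the filter on low counts in this comparison, and 18 passed the threshold of an adjusted p below 0.05, or 58.1%, against a background of 46.9% of all 14637 genes tested. Members called higher numbered 12, against 23.5% of all genes, and members called lower 6, against 23.4%. By cluster, 3 of 11 alpha members rose and 4 fell, 4 of 9 beta members rose, and 5 of 11 gamma members rose and 2 fell. The median log2 difference was -0.34 for alpha, 0.34 for beta and 1.06 for gamma members tested, beside 0.004 for all genes tested. With DESeq2 6 of the 39 members with an adjusted p were called, and without the second WT library 11 of 34. PCDHGC4, PCDHGB6, PCDHGB7, PCDHGB5, PCDHAC1 and PCDHAC2 were called under every alternative run.

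**Figure D3:**
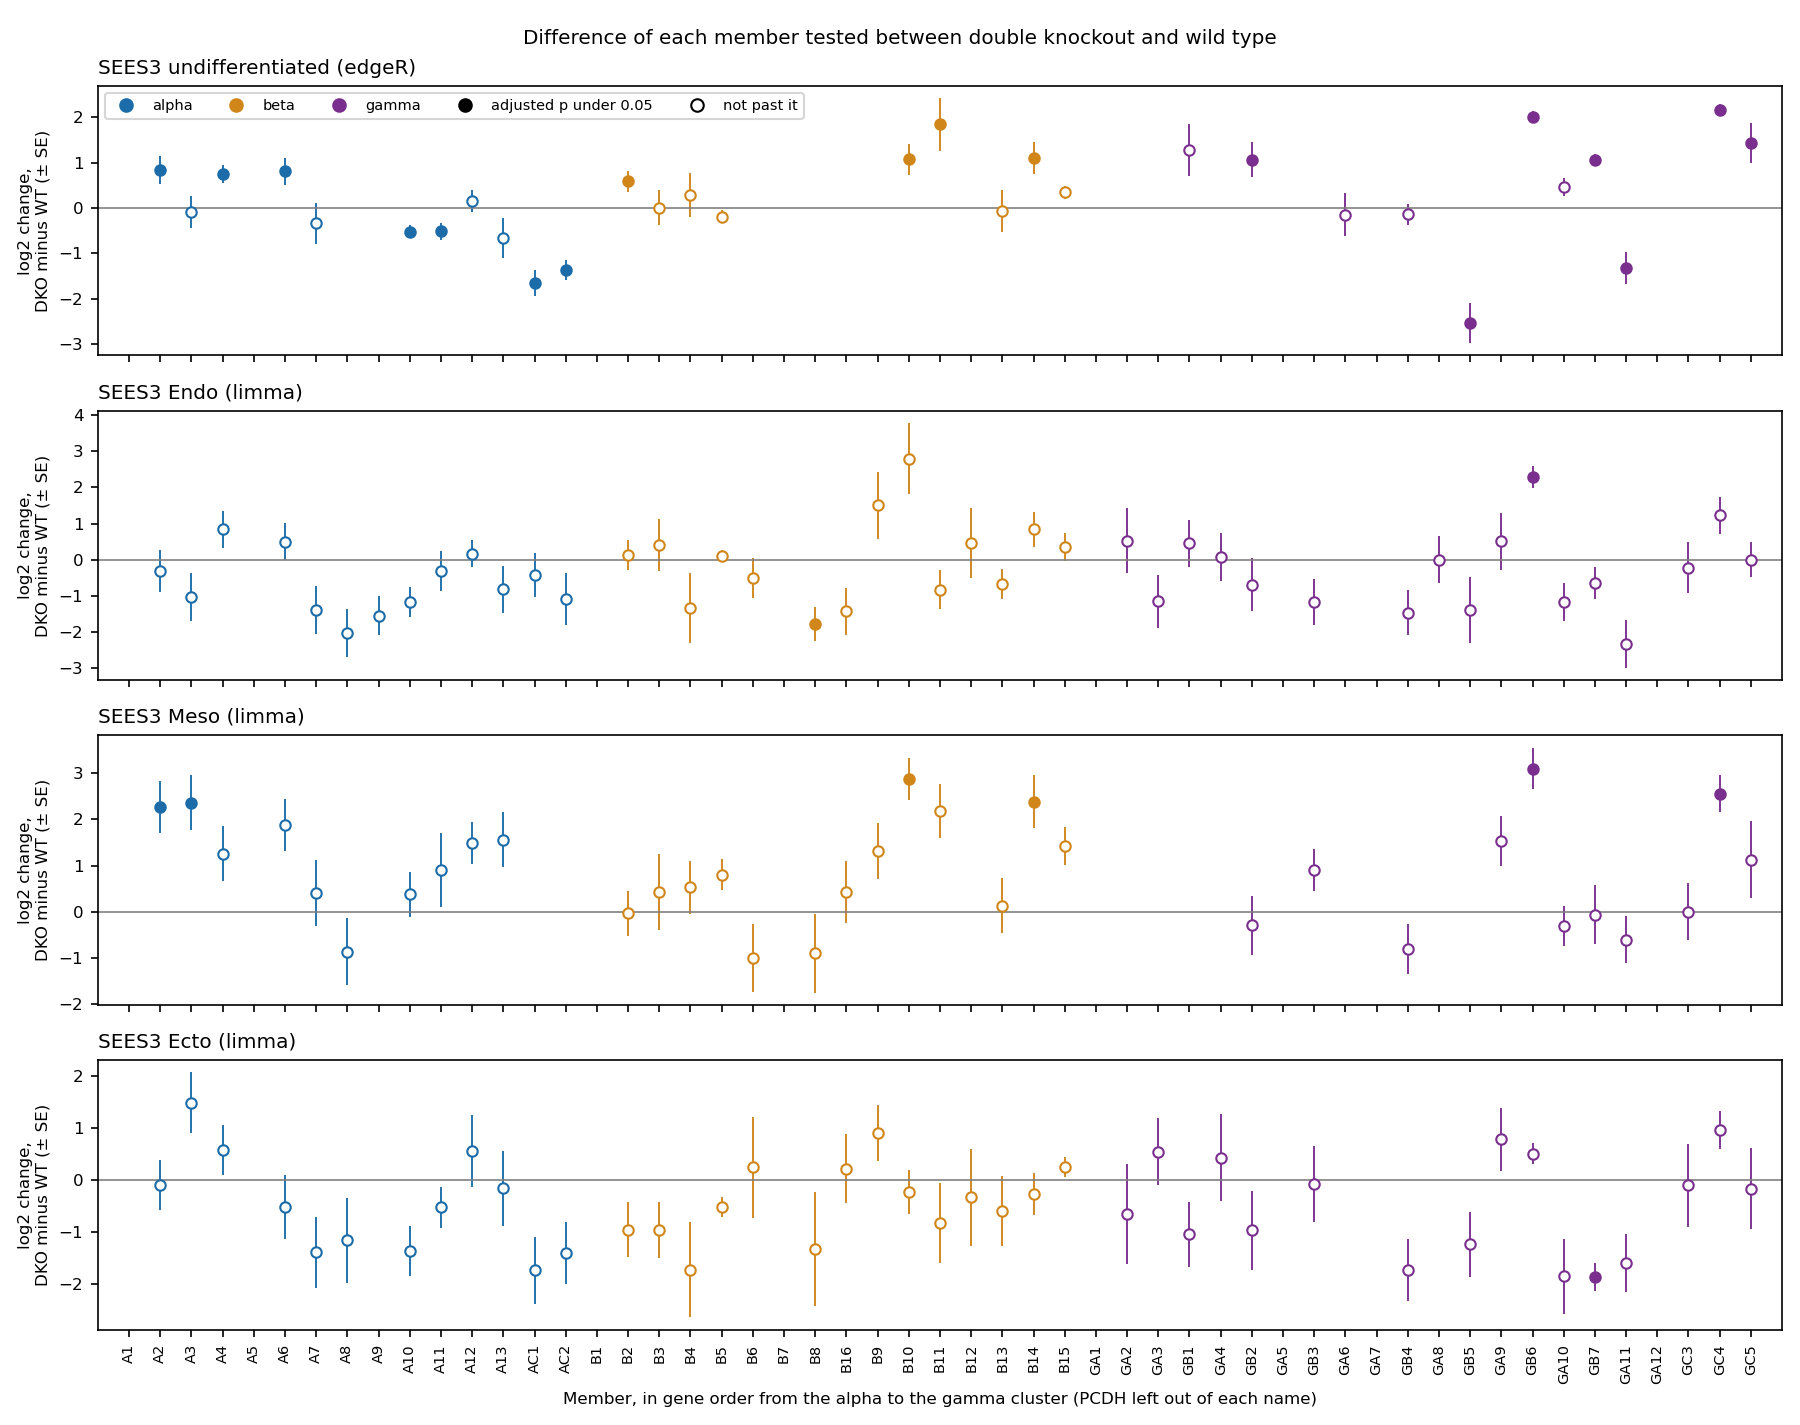
Log2 difference between DKO and WT (y axes, ± SE, linear) for each member tested (x axis, in gene order) in undifferentiated SEES3 cells and the 3 differentiated sets; filled points passed an adjusted p of 0.05 and open points did not. PCDHGB6 lies above 0 in all 4 panels, past the threshold in 3 of them.

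The added loss of UTY in UTX-null cells was read from DKO against UTXKO, which shares the DKO libraries with the comparison above and so is given only beside it. Here 12 of 30 members tested passed, 8 higher and 4 lower, against 34.9% of all genes in either direction, 18.3% higher and 16.6% lower. PCDHGC4 differed by 2.28 ± 0.15, PCDHGB6 by 2.07 ± 0.16 and PCDHGB7 by 1.10 ± 0.15 on the log2 scale (edgeR, adjusted p = 3.95e-12, 4.46e-11 and 1.57e-06). PCDHAC2 was lower by -1.22 ± 0.24 (edgeR adjusted p = 0.00018) and PCDHAC1 by -1.12 ± 0.32 (0.00844, and 0.0942 with DESeq2). The other calls were PCDHA2, PCDHB10, PCDHB14, PCDHGB2 and PCDHGC5, which were higher, and PCDHB5 and PCDHA10, which were lower. Each of these 7 lost its call without at least 1 UTXKO or DKO library. DESeq2 called 4 members, and the count was 7 without the second UTXKO library and 7 without the first DKO library. PCDHGB5 was low in both knockouts, with 1.00 and 0.159 CPM in UTXKO beside 0.444 and 0.635 in DKO.

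Markers of several other cell types moved with DKO. The 7 neuron markers summed to 30.91 and 30.97 CPM in WT and 380.3 to 384.5 in DKO, where 3 of 6 tested were higher and 1 lower. Most of the DKO sum was MAP2 (means of 4.07 CPM in WT and 347.5 in DKO). DCX (8.63 and 13.5) and STMN2 (10.2 and 14.9) were also higher, and ELAVL3 was lower (1.54 and 0.302). TUBB3 and SYP were not called, and ELAVL4 had 0 counts in 1 library of each group. The 6 neural progenitor markers summed to 538.2 to 551.7 CPM in WT, with HES5 at 0 in 1 library, and 858.4 to 882.1 in DKO, with 4 of 6 higher and 1 lower. Of the 5 fibroblast markers, which summed to 168.0 to 169.2 CPM in WT and 153.1 to 168.1 in DKO, 3 were higher and 2 lower, and COL3A1, LUM and DCN were at 0 in both WT libraries (means of 20.5, 22.4 and 3.05 CPM in DKO). The 4 neural crest markers summed to 26.3 to 32.7 CPM in WT and 39.7 to 41.7 in DKO, with 2 higher and 2 lower, and PAX3 and TFAP2B were at 0 in both WT libraries (9.63 and 10.2 CPM in DKO). Pluripotency markers summed to 5121 to 5507 CPM in WT and 4932 to 4957 in DKO, with 1 of 6 higher and 3 lower. The part of these cells in the protocadherin levels was not tested.

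In the endoderm set PCDHGB6 was again the member that rose. It stood at 10.6 and 9.48 TPM in Endo WT and at 46.3 and 60.9 in Endo DKO, so the groups lay far apart (log2 difference of TPM + 1, which understates the change of low genes, of 2.30 ± 0.31, limma, adjusted p = 0.00353). PCDHGC4 stood at 20.2 and 17.9 TPM in WT and 41.0 and 51.4 in DKO, without passing (1.23 ± 0.51, limma adjusted p = 0.165). PCDHB10 was listed at 0 and 10.5 TPM in WT and at 26.5 and 19.4 in DKO (adjusted p = 0.111). PCDHB8, a low beta isoform, fell from 7.84 and 10.8 TPM to 2.12 and 1.79 (-1.79 ± 0.47, limma adjusted p = 0.0464), a call that each WT or DKO library decided: without 1 of these its adjusted p was 0.119 to 0.193. Without 1 of the Endo XKO libraries it was 0.0676 or 0.068. These were the 2 calls among 44 members tested, or 4.55%, against 12.1% of all genes, 7.01% higher and 5.1% lower. PCDHGB6 was called whichever library was left out. Endoderm markers summed to 33020 to 33146 TPM in WT and 9494 to 10143 in DKO, mostly CER1 (means of 29250 and 7497). Of the 6, 5 were called lower, with smaller changes such as that of SOX17 (896.9 and 652.4), and CXCR4 was not called (363.9 and 342.7). Neuron markers summed to 7.73 to 13.6 and 236.3 to 304.8 TPM, and neural progenitor markers to 301.5 to 341.6 and 1418 to 1450. Of the 7 neuron markers 5 were called higher in DKO, and MAP2 and ELAVL3 were listed at 0 in both WT libraries. Of 5 mesoderm markers tested 3 were lower. That list summed to 2393 to 2452 TPM in WT and 617.5 to 733.1 in DKO, mostly MIXL1 (means of 2331 and 651.7). Fibroblast markers summed to 206.0 to 226.8 and 145.5 to 202.2 TPM, with COL3A1, LUM and DCN listed at 0 in both WT libraries. COL3A1 and LUM had means of 68.6 and 17.9 TPM in DKO, while COL1A2 was called lower (189.8 in WT and 41.9 in DKO). Neural crest markers summed to 62.8 to 69.5 and 61.1 to 84.0 TPM, with TFAP2B listed at 0 in both WT libraries and at 35.5 in DKO. SOX10 was called lower (means of 11.9 and 0.602 TPM), and FOXD3 had a lower mean without a call (53.6 and 34.8). The part of all these cells was not tested.

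In the mesoderm set both gamma isoforms rose. PCDHGC4 stood at 20.6 and 17.6 TPM in Meso WT and at 115.8 and 118.3 in Meso DKO, and PCDHGB6 at 10.1 in both WT libraries and at 94.5 and 93.8 in DKO. Together they held most of the gamma cluster in DKO, where PCDHGC4 made up 44.2 to 45.6% of its TPM and PCDHGB6 36.1% in both libraries, against 21.7 to 27.0% and 12.5 to 13.2% in WT. PCDHGB7 did not follow them, with 27.5 and 32.9 TPM in WT and 28.8 in both DKO libraries. The log2 differences were 3.10 ± 0.45 for PCDHGB6 and 2.56 ± 0.41 for PCDHGC4 (limma, adjusted p = 0.0063 and 0.00876). Among beta isoforms, PCDHB10 rose from 2.07 and 2.31 TPM to 19.7 and 25.3 (2.87 ± 0.45, limma adjusted p = 0.00858) and PCDHB14 from 4.64 and 1.72 to 18.6 and 20.2 (2.38 ± 0.57, adjusted p = 0.0404). The alpha isoform PCDHA2 was listed at 0 and 1.26 TPM in WT and at 5.72 and 6.87 in DKO, and PCDHA3 at 0 and 0.509 in WT and at 3.48 and 7.97 in DKO (limma, adjusted p = 0.0444 and 0.0451).

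Those 6 were the Meso DKO calls, all higher, of 34 members tested, or 17.6%, against 10.1% of all genes in either direction and 6.37% called higher. The median log2 difference was 0.855 over the members tested and 0.214 over all genes. Of the 6, PCDHA2, PCDHB10, PCDHB14, PCDHGB6 and PCDHGC4 (83.3%) were also among the 12 of 31 members tested that were higher in undifferentiated DKO cells. They were 41.7% of that list, and the 2 comparisons have separate WT libraries. The same overlap was not counted over all genes, so these shares are only a description. No Meso call held under every library left out. Without the first or the second DKO library, or the first WT library, 0 members were called, and PCDHGB6 then had an adjusted p of 0.0555, 0.0599 and 0.0565. Without the second WT library 2 were called, PCDHGC4 having an adjusted p of 0.0637. PCDHA2 and PCDHA3 also lost the call after median centring of the libraries (0.0559 and 0.0766) and without the first (0.0681 and 0.0571) or second (0.068 and 0.0574) Meso XKO library. Neuron markers summed to 28.7 to 68.7 TPM in Meso WT and 996.3 to 1246 in Meso DKO, mostly STMN2 (means of 47.4 and 957.5). Of 6 tested 4 were higher, and ELAVL4, MAP2, ELAVL3 and DCX were listed at 0 in both WT libraries. Neural progenitor markers summed to 215.8 to 235.5 and 691.9 to 706.7 TPM, with PAX6 listed at 0 in all 4 libraries. ZIC1 (19.4 and 423.3) and SOX1 were called higher, and NES and FABP7 were not called. Of 6 mesoderm markers 0 were higher and 2 lower, HAND1 (347.7 and 106.2 TPM) and MESP1 (10.6 and 0). The neural crest list went from 3.44 to 6.70 TPM in WT to 51.2 to 60.5 in DKO with FOXD3 and SOX10 at 0 in both, and the part of such cells was not tested.

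In the ectoderm set PCDHGB7 fell, and the other gamma isoforms did not pass. PCDHGB6 stood at 34.1 and 41.4 TPM in Ecto WT and 51.9 and 55.3 in Ecto DKO (0.50 ± 0.20, limma adjusted p = 0.181), and PCDHGC4 at 33.4 and 13.4 and at 40.7 and 43.7 (0.96 ± 0.37, adjusted p = 0.166). PCDHGB7 fell from 55.0 and 38.7 TPM in WT to 11.65 and 12.05 in DKO (-1.88 ± 0.27, limma adjusted p = 0.00616), and this held under every alternative run. It was the 1 call among 42 members, or 2.38%, against 8.03% of all genes and 3.86% called lower. PCDHGA10, a variable A-type gamma isoform, was at 17.0 and 8.90 TPM in WT and 2.18 and 3.27 in DKO (adjusted p = 0.172). Of these cells' markers, neural progenitor genes summed to 1159 to 1197 TPM in WT and 2770 to 3226 in DKO, with 3 of 6 higher and 1 lower. NES rose (means of 485.4 and 1920 TPM), as did SOX1 and HES5, while PAX6 fell (26.1 and 4.47). ZIC1 and FABP7 had lower means in DKO without a call. All 5 pluripotency markers tested were lower. Neuron genes summed to 466.8 to 525.0 and 583.9 to 646.7 TPM, neural crest genes to 4.92 to 8.35 and 154.4, and fibroblast genes to 25.6 to 30.2 and 431.2 to 635.2. COL3A1, LUM and DCN were listed at 0 in both WT libraries, and the part of those cells was not tested.

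The alpha C-type isoforms and PCDHGC5 had no called difference in differentiated cells. PCDHAC1 was at 2.05 and 4.93 TPM in Endo WT against 1.66 and 2.80 in Endo DKO, listed at 0 and 0.542 in Meso WT against 1.24 and 0.847 in Meso DKO, and at 1.69 and 3.16 in Ecto WT against 0 in both Ecto DKO libraries. PCDHAC2 was at 2.33 and 4.81 TPM in Endo WT and 0 and 3.19 in Endo DKO, at 0 in both Meso WT libraries and 0.703 and 0.965 in Meso DKO, and at 2.89 and 3.60 in Ecto WT and 1.56 and 0 in Ecto DKO. Only in Ecto did both DKO libraries lie below both WT libraries for each of the pair. No Endo or Ecto comparison of them passed the test, and in Meso neither passed the filter on low values. PCDHGC5 was listed at 0 in all 4 Endo WT and DKO libraries and reached at most 3.24 TPM in the DKO libraries of the other sets. In the single knockouts PCDHAC2 was at 5.50 and 6.01 TPM in Endo XKO, 5.49 and 9.25 in Endo YKO, 10.3 and 4.98 in Ecto XKO and 8.36 and 10.2 in Ecto YKO. These 8 libraries all lay above the WT libraries of their set, with adjusted p-values of 0.588 to 0.859 (limma). Such an order held for 22.2% of all genes in Endo XKO, 15.9% in Endo YKO, 19.9% in Ecto XKO and 19.3% in Ecto YKO. In Meso, PCDHAC2 was listed at 0 in all XKO and YKO libraries, as in WT.

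**Figure D4:**
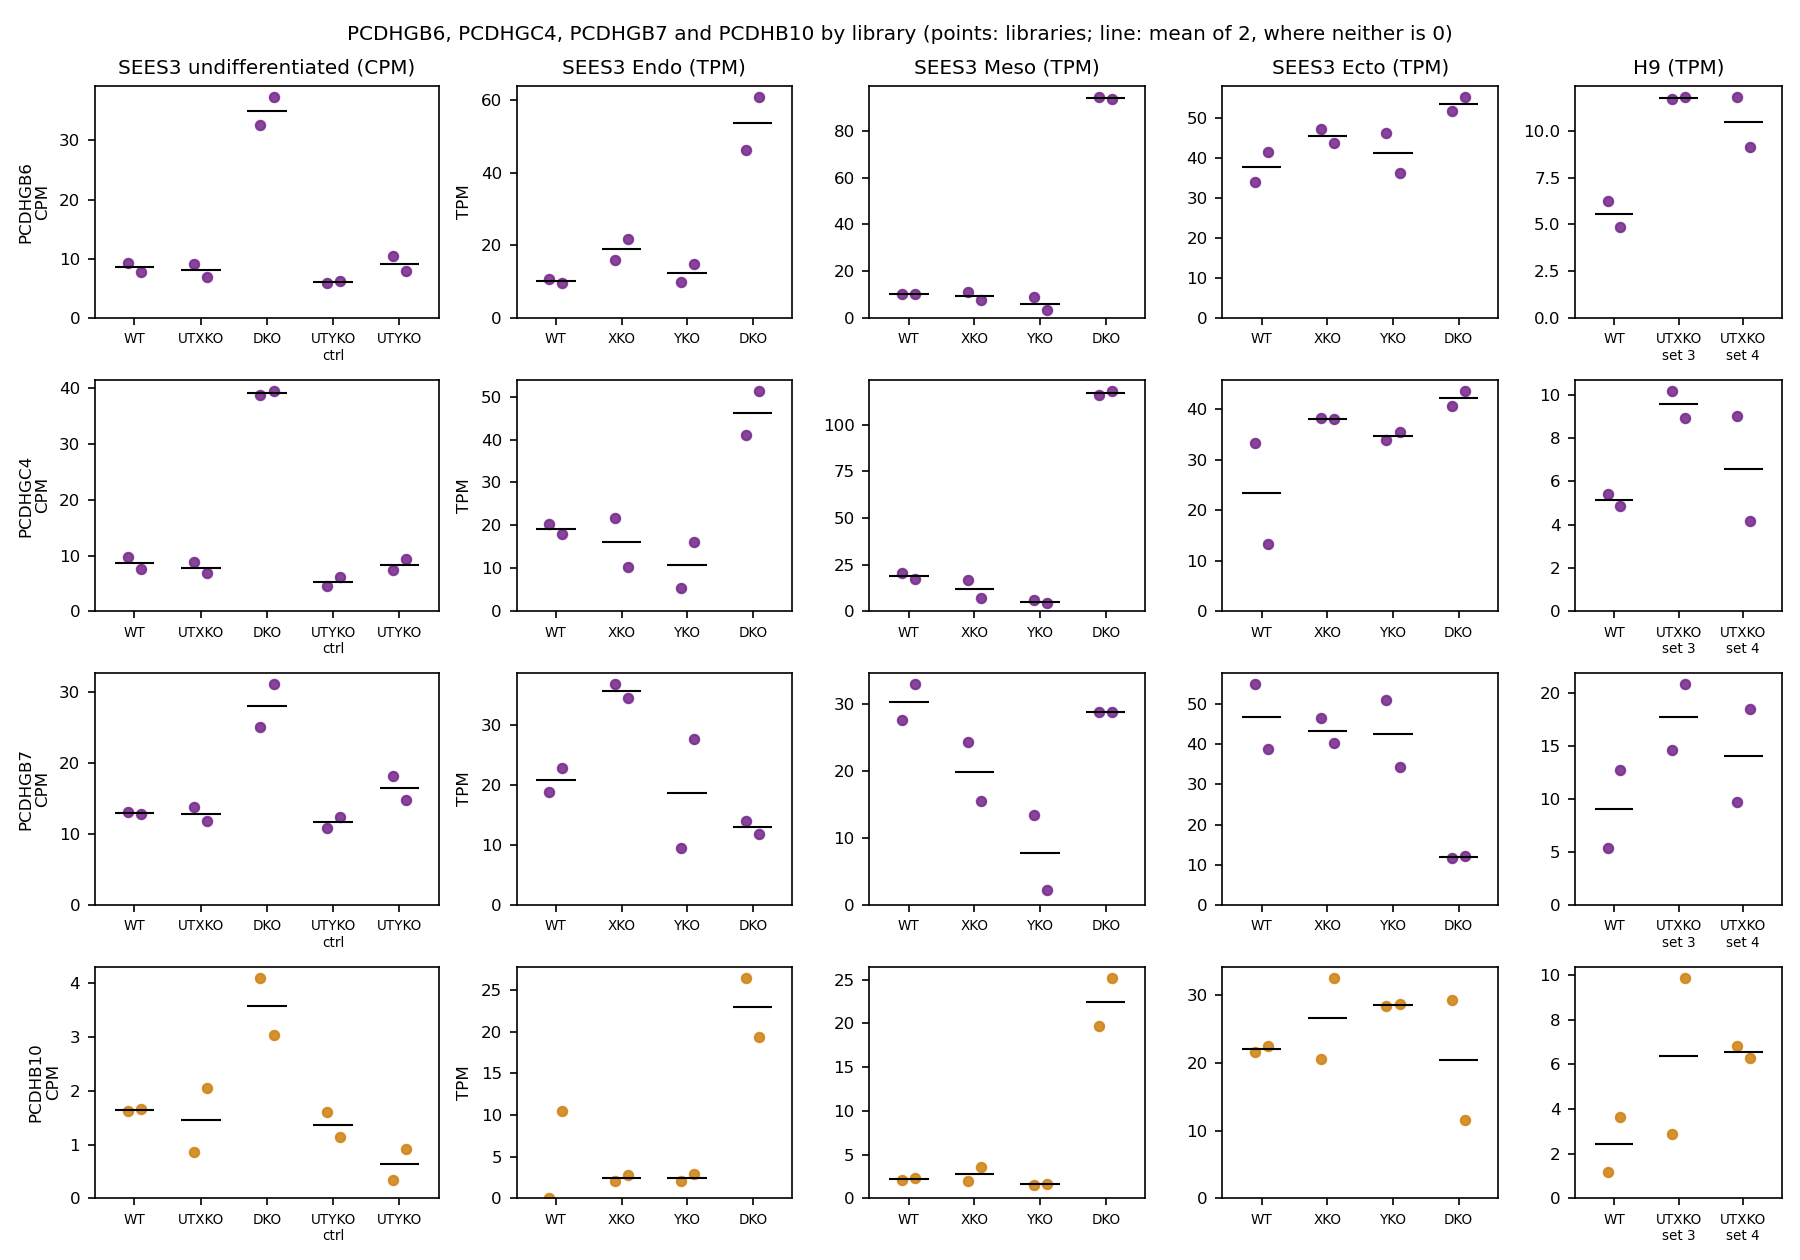
Level of PCDHGB6, PCDHGC4, PCDHGB7 and PCDHB10 (rows, y axes linear from 0, in CPM for undifferentiated SEES3 cells and TPM elsewhere) in every library by group; lines are means of 2 libraries where neither is 0. PCDHGB6 and PCDHGC4 stand apart in undifferentiated and Meso DKO, while PCDHGB7 is low in Ecto DKO at 11.65 and 12.05 TPM.

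Loss of UTX alone in undifferentiated SEES3 cells left nearly all members within the spread of the test. PCDHGB5 fell, from 2.82 and 3.22 CPM in WT to 1.00 and 0.159 in UTXKO (-2.32 ± 0.50, edgeR adjusted p = 0.00202). The 2 groups did not overlap, but the call ended without the second WT library (adjusted p = 0.054) or the second UTXKO library (0.0666). It was the 1 call of 25 members tested, or 4%, against 12.5% of all genes and 6.31% called lower. PCDHGC3, with 6 and 9 counts in WT, had 0 in both UTXKO libraries, at least 3.77-fold lower in pooled CPM against a floor of 3 counts over the group. The WT libraries here are the ones used for DKO. Of the marker lists, 1 of 5 neuron markers was higher (MAP2, 4.07 to 14.8 CPM) and 2 of 2 fibroblast markers were lower in UTXKO, and their part was not tested. PCDHGC4 (8.88 and 6.82 CPM), PCDHGB6 (9.16 and 6.98) and PCDHGB7 (13.7 and 11.7) in UTXKO overlapped WT, PCDHAC1 was at 4.29 and 4.28 CPM against 7.28 and 5.33, and PCDHAC2 at 8.30 and 8.25 against 8.92 and 9.10.

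Loss of UTY alone went with lower RNA of 3 members, 1 in each cluster. PCDHA6 was at 1.72 and 2.20 CPM in UTYKO_ctrl and had 0 counts in both UTYKO libraries, at least 11.9-fold lower against the floor of 3 counts over the group (edgeR, adjusted p = 0.00117). PCDHGA11 fell from 7.42 and 8.48 CPM to 2.59 and 1.17 (-2.24 ± 0.34, edgeR adjusted p = 0.00132). PCDHB5, the leading beta isoform, fell from 30.6 and 29.9 CPM to 12.5 and 13.4 (-1.22 ± 0.20, edgeR adjusted p = 0.00318). None of the 3 pairs of groups overlapped. These were the 3 calls of 29 members tested, or 10.3%, against 0.606% of all genes in either direction and 0.511% called lower. Of the 9 beta members tested, 8 had both UTYKO libraries below both UTYKO_ctrl libraries and 0 had both above, against 14.7% and 13.5% of all genes (3 below and 1 above of 10 alpha members, 2 below and 4 above of 10 gamma members), and the median over the 9 beta members tested was -0.678, beside -0.011 over all genes. PCDHB5 lost the call without the first UTYKO library (adjusted p = 0.257) or the second (0.317), and PCDHGA11 without the second (0.238, with 1 member then called), while PCDHA6 was called under every alternative run. PCDHGA10 was at 3.98 and 2.87 CPM in UTYKO_ctrl and 1.21 and 1.09 in UTYKO, without passing (-1.56 ± 0.38, edgeR adjusted p = 0.0839). The UTYKO levels of PCDHB5 and PCDHGA11 lay below those of WT as well (18.3 and 16.4, and 3.42 and 3.03 CPM). Neural progenitor markers summed to 548.5 to 662.9 CPM in UTYKO_ctrl and 644.8 to 678.4 in UTYKO, with 1 of 4 tested higher, ZIC1 (means of 5.90 and 67.8 CPM, and 54.3 in WT), and HES5 at 0 in 1 UTYKO_ctrl library. Endoderm markers summed to 7.74 to 10.02 and 6.75 to 7.13 CPM, with 1 of 3 lower, CER1 (4.32 and 0.684), and SOX17 at 0 in all 4 libraries. Their part was not tested.

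The 2 controls of undifferentiated SEES3 cells themselves differed in 6 of 34 members, 3 higher and 3 lower in UTYKO_ctrl, or 17.6%, against 19.1% of all genes, 10.3% higher and 8.79% lower. PCDHGC3, a C-type gamma isoform, was at 0.891 and 0.827 CPM in WT and at 12.8 and 16.0 in UTYKO_ctrl (log2 difference 4.09 ± 0.29, edgeR over all 10 libraries, adjusted p = 7.03e-09). It stayed at 18.9 and 15.6 CPM in UTYKO and at 0 to 0.127 in UTXKO and DKO; the UTYKO_ctrl and UTYKO libraries were high and all others low. PCDHGA11 and PCDHB5 were also higher in UTYKO_ctrl, by 1.34 ± 0.27 and 0.83 ± 0.15 (edgeR, adjusted p = 0.0015 and 0.000469). PCDHGA10 was lower by -1.03 ± 0.25 (adjusted p = 0.00531, and 0.088 without the second WT library), as were PCDHA10 (-0.60 ± 0.17, adjusted p = 0.0141, and 0.13 without the first WT library) and PCDHGC4 (-0.62 ± 0.22, adjusted p = 0.0487, and 0.0557 to 0.296 without either WT or DKO library, the first UTXKO or the first UTYKO_ctrl library). Of the marker lists, ZIC1, STMN2 and NANOG were lower in UTYKO_ctrl than in WT (5.90 against 54.3, 1.56 against 10.2 and 93.2 against 124.2 CPM). CER1, NES, DNMT3B and COL1A1 were higher (4.32 against 0.241, 595.5 against 486.5, 1971 against 1537 and 47.6 against 33.5 CPM). Their part was not tested. Stock and any batch of these groups cannot be told apart.

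PCDHGC3 was also high in the differentiated single knockouts, although no member passed the test there. In Endo, PCDHGC3 was listed at 0 and 1.82 TPM in WT, 13.7 and 15.3 in XKO, 6.23 and 18.4 in YKO, and 1.07 and 0 in DKO. In Meso it was listed at 0 in both WT and both DKO libraries, at 12.9 and 8.69 TPM in XKO and at 21.7 and 5.93 in YKO. Ecto gave 3.28 and 0 TPM in WT, 23.3 and 19.8 in XKO, 31.9 and 32.5 in YKO and 2.66 and 0 in DKO. In each set every XKO and YKO library thus lay above every WT and DKO library, with log2 differences of 2.82 to 4.01 from WT and adjusted p-values of 0.0918 to 0.267 (limma). The undifferentiated UTXKO libraries, with 0 counts, did not share this level with XKO. The clone and wild-type stock behind XKO and YKO are not given. Knockout, clone and stock therefore cannot be told apart for PCDHGC3 here.

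PCDHGA10 had the reverse order. It was at 10.8 and 6.70 TPM in Endo WT against 1.02 and 1.39 in XKO and 1.02 and 2.86 in YKO. Meso WT libraries held 9.25 and 7.44 TPM and all 4 single-knockout libraries were listed at 0, and Ecto WT held 17.0 and 8.90 against 0 to 1.90 in the 4 single-knockout libraries. Its adjusted p lay between 0.083 and 0.325 in these 6 comparisons (limma). PCDHA6 was listed at 0 in both Endo YKO and both Ecto XKO libraries, 1 Meso YKO library and 1 Ecto YKO library, and at 4.69 and 6.45 TPM in Endo WT and 3.87 and 4.82 in Ecto WT. Meso WT itself had 0 and 1.24 TPM of it, and Meso XKO 1.03 and 0.962. Each set's XKO and YKO comparisons share the WT libraries, so these values are given side by side. For PCDHGA10 and PCDHA6 too, knockout, clone and stock cannot be told apart.

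**Figure D5:**
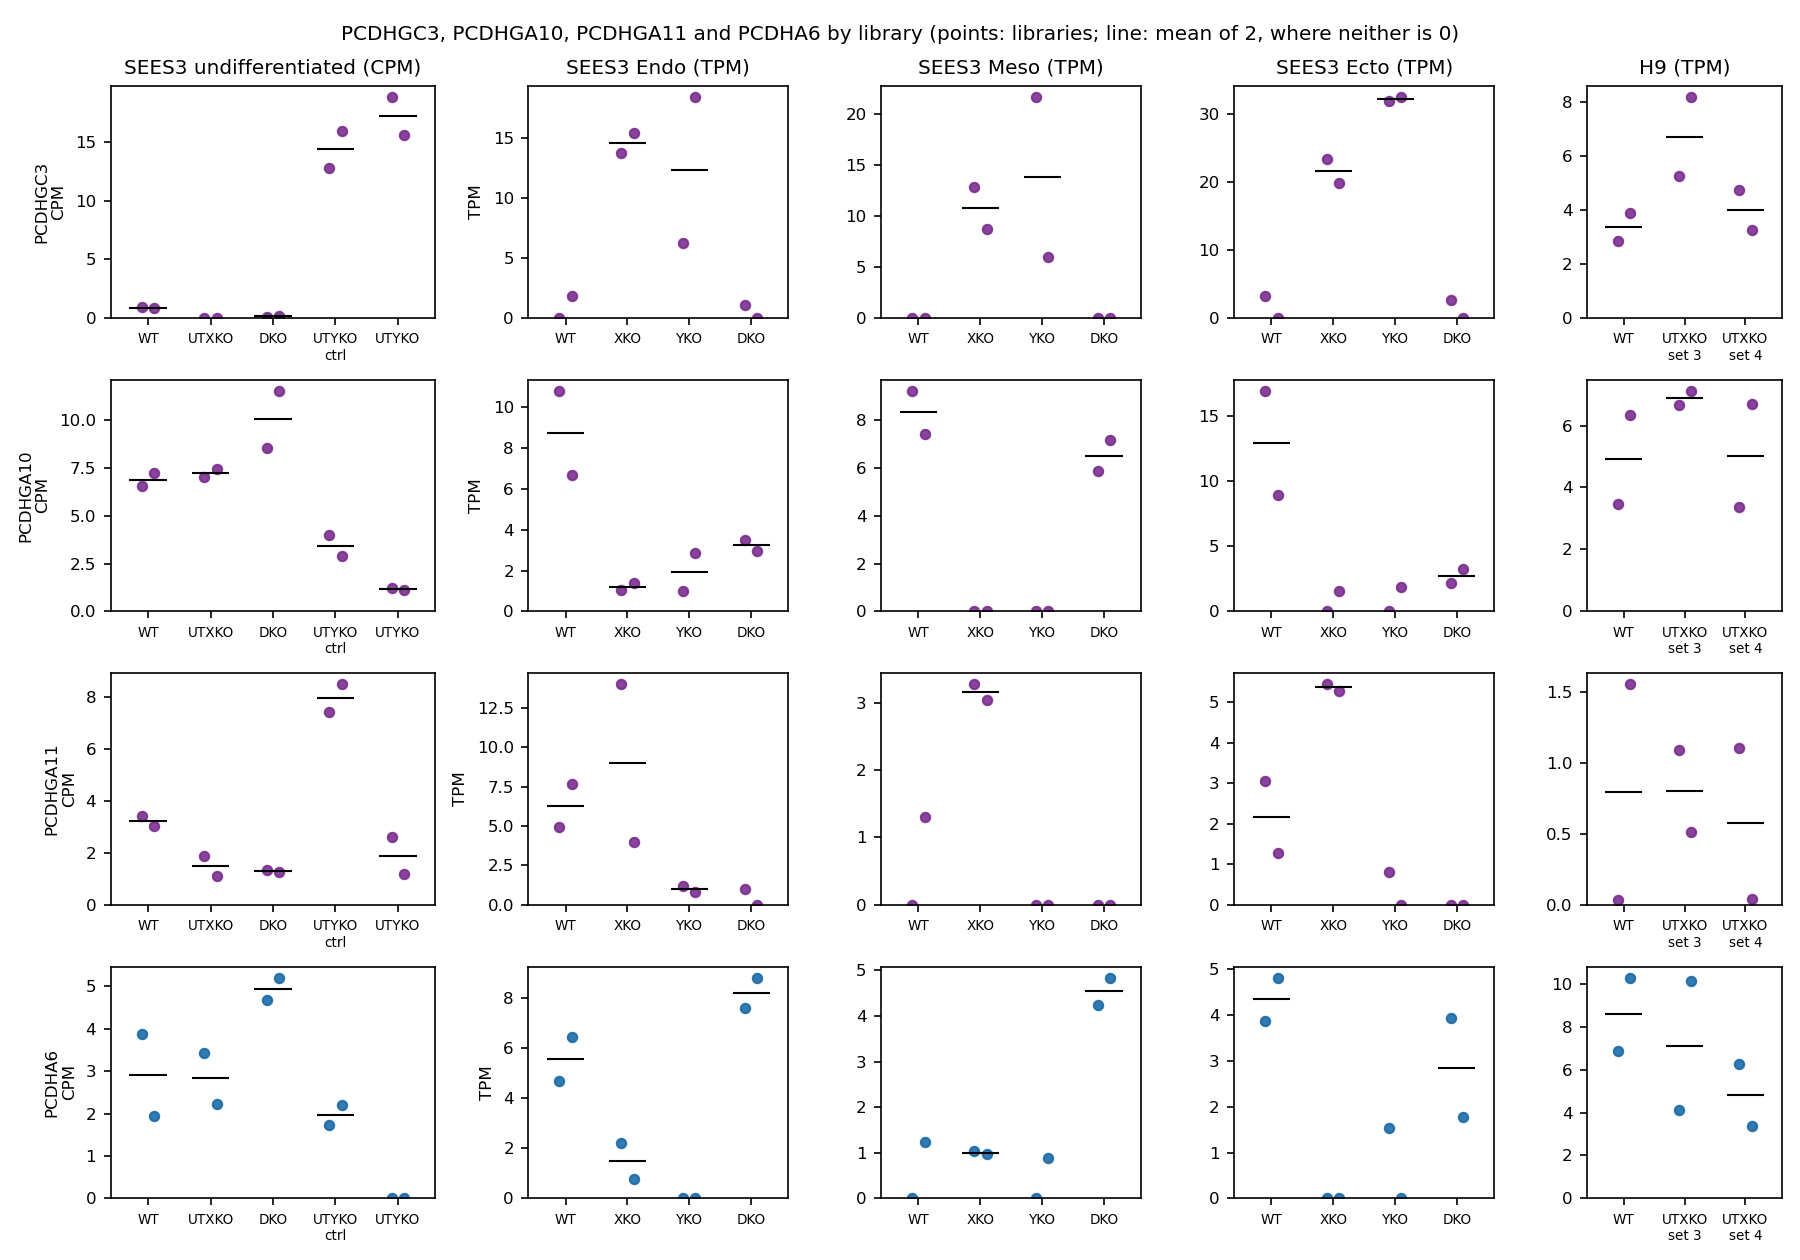
Level of PCDHGC3, PCDHGA10, PCDHGA11 and PCDHA6 (rows, y axes linear from 0, in CPM for undifferentiated SEES3 cells and TPM elsewhere) in every library by group; lines are means of 2 libraries where neither is 0. PCDHGC3 is high in UTYKO_ctrl and UTYKO and in XKO and YKO of all 3 differentiated sets, and low in UTXKO and DKO.

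Across the 6 single-knockout comparisons of differentiated cells 0 members were called by limma. The background was 0.0319% and 0.0255% of all genes for XKO and YKO in Endo, 0.0397% and 0.0132% in Meso, and 0.356% and 0.0842% in Ecto. At an unadjusted p below 0.05 there were 7 and 11 of 44 members in Endo, 6 and 8 of 34 in Meso, and 4 and 4 of 42 in Ecto. The shares of all genes at that level were 7.86% and 12.6% in Endo, 10.7% and 24.2% in Meso, and 8.82% and 9.17% in Ecto. In Meso YKO, 5 members (PCDHGB6, PCDHGA10, PCDHGB7, PCDHGC3 and PCDHGC4) were called when the first YKO library was left out. The 2 Meso YKO libraries lay apart in several gamma isoforms, with 13.4 and 2.16 TPM for PCDHGB7 and 9.06 and 3.16 for PCDHGB6.

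In H9 cells the UTX knockout sets showed lower PCDHB5, with no called change in the gamma cluster. PCDHB5 was at 27.0 and 29.1 TPM in WT, 14.9 and 19.1 in set 3, and 15.03 and 14.75 in set 4, so all 4 knockout libraries lay below both WT libraries (-0.79 ± 0.17, limma over 4 against 2 libraries, adjusted p = 0.0443). It was the 1 call of 36 members tested, or 2.78%, against 4.58% of all genes and 1.77% called lower. The call ended when either WT library (adjusted p = 0.18 and 0.164), the first set 3 library (0.0932) or either set 4 library (0.0957 and 0.0947) was left out, and with the sets as separate groups (0.066). PCDHGB6 stood at 6.22 and 4.88 TPM in WT, 11.7 and 11.8 in set 3 and 11.8 and 9.16 in set 4, and PCDHGC3 at 2.83 and 3.88, 5.25 and 8.18, and 4.72 and 3.27. PCDHAC2 was at 3.74 and 2.44 TPM in WT, 2.06 and 2.40 in set 3, and 0.520 and 0.480 in set 4, without a call. Pluripotency markers summed to 7644 to 7645 TPM in H9 WT and 5962 to 6143 in the knockout sets (1 of 6 higher, 3 lower), neural progenitor markers to 432.9 to 447.4 and 271.7 to 317.1 (1 of 3 tested higher, FABP7, and 1 lower, NES), neuron markers to 25.7 to 33.3 and 57.4 to 66.1 (1 of 5 higher, MAP2) and endoderm markers to 38.2 to 46.8 and 4.48 to 14.99 (1 of 3 lower, FOXA2). Their part was not tested. Between sets 4 and 3, limma called 0 of 36 members, with 2 at an unadjusted p below 0.05, against 0.0408% of all genes.

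Genes known to regulate the clusters were taken from a fixed list of 32, all of them tested. In undifferentiated DKO cells 9 rose and 5 fell against WT, a share near that of all genes (23.5% higher and 23.4% lower). EZH2, the enzyme that methylates histone H3 lysine 27, rose by 0.94 on the log2 scale, and CTCFL, a germline relative of CTCF, fell by 2.27 (edgeR, adjusted p = 7.04e-10 and 1.03e-09). TET1, which oxidises methylated cytosine, fell by 0.65 and the cohesin subunit STAG1 rose by 0.72 (adjusted p = 9e-08 and 2.26e-06). UTXKO had 2 higher and 2 lower, against 12.5% of all genes called in either direction, and UTYKO 0, against 0.606%. In differentiated DKO cells 2 rose and 2 fell in Endo, 1 rose in Meso and 2 fell in Ecto. The shares of all genes called there in either direction were 12.1%, 10.1% and 8.03%. DNMT3B, a DNA methyltransferase, fell by 1.08 in Endo DKO and by 2.29 in Ecto DKO (limma, adjusted p = 0.000723 and 5.65e-05). It was not called in Meso DKO (-0.68, limma adjusted p = 0.341) and is also 1 of the 6 pluripotency markers.

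Of 25 genes acting with protocadherins at the membrane, 8 rose and 4 fell in undifferentiated DKO cells, again near the 46.9% of all genes called, among them protein kinase C alpha (PRKCA, 0.95, edgeR adjusted p = 2.5e-10). In Meso DKO 3 of 23 tested rose, against 6.37% of all genes, led by CYFIP2, a subunit of the actin-regulating WAVE complex. Of the genes that lie beside the clusters at 5q31 but outside the family, 2 of 20 tested rose and 2 fell in undifferentiated DKO cells, with a median of 0.02, a smaller share than the 46.9% of all genes. GNPDA1, a glucosamine-6-phosphate deaminase, was the neighbour with the smallest adjusted p and fell by 1.17 (edgeR, adjusted p = 1.22e-10).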

How the data were processed

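Counts per gene of the 10 undifferentiated SEES3 libraries were deposited by the authors as 3 tables. STAR, RSEM, featureCounts and edgeR, with GRCh38 and hg38, are named per the submitters' processing notes, while for tool versions, the annotation release and the tool behind each table the answer is: not given in the sources used here. The TPM values of the differentiated and H9 libraries were deposited by the authors, and they keep no depth. Libraries were directional and made from polyadenylated RNA, per the labels' protocols. A further 12 columns of samples outside these groups were not used.

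Counts were filtered with filterByExpr, scaled by TMM and tested with edgeR 4.0.16 (quasi-likelihood, R 4.3.3), with DESeq2 1.42.0 as an alternative. TPM tables were tested with limma 3.58.1 on log2(TPM + 1), for genes at 1 TPM or more in at least 2 libraries (alternatives were a pseudocount of 0.1, no filter, median centring and only the groups compared). Adjusted p-values are Benjamini-Hochberg over all genes tested in each of 16 comparisons, with a threshold of 0.05. The SE of an edgeR value is its log2 difference divided by the square root of F. A group at 0 counts was set against a floor of 3 counts over the group, and ratios of low counts have exact 95% intervals; both cover counting error only. Each model was tested on simulated data. Other alternatives were other size factors, a joint fit, a replicate block and each library left out.

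The rule for named genes took up to 8 called members with the smallest adjusted p per comparison, the 2 highest of each cluster in each table and the 5 C-type members, and from each other list up to 4 called genes; further members named were chosen after their values were seen. The members and the gene lists were chosen with earlier results of these data known.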

Additional observations from a re-analysis of the deposited data

Results flagged for a closer look

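PCDHGB7 moved in opposite directions in the DKO of different cell states. It was higher in undifferentiated DKO than in WT (log2 difference 1.06), while both Endo DKO libraries lay below both Endo WT libraries (-0.64, limma adjusted p = 0.403) and both Ecto DKO libraries below both Ecto WT libraries (-1.88, adjusted p = 0.00616). The difference between these effects was not tested, and the values come from counts in the first case and TPM in the others.

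PCDHB5 was lower in H9 cells without UTX than in H9 WT (log2 difference -0.79), while the libraries of the SEES3 UTX knockouts lay above their WT libraries in undifferentiated cells (0.28, edgeR adjusted p = 0.216), in Endo (0.38, limma adjusted p = 0.653) and in Ecto (0.36, adjusted p = 0.7). In Meso both XKO libraries lay below both WT libraries (-0.23, adjusted p = 0.799), as in H9. This difference was not tested either. Whether H9 cells carry UTY is not given here, so the H9 and SEES3 knockouts may not be alike.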

How the results depend on the processing

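Of 180 recomputed counts of members called, 146 stayed within 1.5 times the value given and 34 moved further. Among single members called in the main run or an alternative, 0 changed sign between those runs. Of 50 member calls, 16 were made under every alternative: 6 in DKO against WT, 4 in DKO against UTXKO, 3 in UTYKO_ctrl against WT, and 1 each in UTYKO (PCDHA6), Endo DKO (PCDHGB6) and Ecto DKO (PCDHGB7). With DESeq2 the count was 0 for UTXKO, 6 for DKO against WT and 4 for DKO against UTXKO. With no filter on low values it was 3 for UTXKO, 6 for UTYKO, 0 for H9, 1 between the H9 sets and 1 for Endo DKO. A pseudocount of 0.1 gave 1 for Endo DKO and 3 for Meso DKO, a joint fit of the 10 libraries 2 for UTXKO, and the H9 sets as separate groups 0. With 1 library left out the count ranged from 0 to 1 for UTXKO, 1 to 4 for UTYKO, 11 to 15 for DKO against WT, 7 to 12 for DKO against UTXKO, 4 to 7 for UTYKO_ctrl against WT, 0 to 1 for H9, 0 to 0 between its sets, 1 to 2 for Endo DKO, 0 to 8 for Meso DKO, 0 to 5 for Meso YKO and 1 to 2 for Ecto DKO. It stayed at 0 in the other single knockouts. A lone library left in a group was assumed to vary like the others. The cause was not tested.

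With the replicate number as a block the count was 2 for UTXKO, 4 for UTYKO, 20 for DKO against WT, 12 for DKO against UTXKO and 7 for UTYKO_ctrl against WT. Same-numbered libraries differed from their group means with correlations of -0.031 to 0.183 over 15191 genes, and with 2 pairs they share only a number. No paired analysis was possible for the TPM tables because their columns carry no replicate numbers. Low counts limit PCDHGC3 in WT, UTXKO and DKO, and TPM values at 0 have no known depth.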

Other observations

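Protocadherins outside the 3 clusters also changed in DKO. In undifferentiated cells 8 of the 10 tested were higher in DKO than in WT and 2 lower, with a median log2 difference of 2.00, against 23.5% and 23.4% of all genes called higher and lower. PCDH7 had a mean of 3.15 CPM in WT and 53.5 in DKO (4.04, edgeR adjusted p = 9.7e-16), and PCDH10 a mean of 2.19 and 12.7 CPM (2.46, edgeR adjusted p = 8.73e-09). In Endo 3 of 10 were higher and 1 lower, against 7.01% and 5.1% of all genes, and PCDH8 had means of 0.480 TPM in WT and 60.5 in DKO (5.45, limma adjusted p = 0.00154). In Meso, PCDH7 was the 1 of 8 called, against 10.1% of all genes, with mean levels of 23.4 and 144.7 TPM (2.58, limma adjusted p = 0.00177). In Ecto 4 of 11 were higher and 1 lower, against 8.03% of all genes called in either direction. PCDH8 was listed at 0 in both WT libraries and had a mean of 127.9 TPM in DKO, and PCDH1 fell from 121.2 to 9.01 TPM (-3.61, limma adjusted p = 5.96e-05). In UTXKO 1 of 6 was higher and 1 lower, against 12.5% of all genes. These were PCDH7 (means of 3.15 CPM in WT and 8.49 in UTXKO) and PCDH11X (19.3 and 10.4). In H9 UTXKO, PCDH11X was higher (2.38 and 8.44 TPM), of 8 tested, against 4.58%. Ecto XKO had lower PCDH17 (25.5 and 2.64 TPM) and PCDH1 (121.2 and 48.55), of 11 tested, against 0.356%. UTYKO had 0 of 7 called by edgeR, against 0.606% of all genes, and the other single knockouts of differentiated cells had no call.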
